A study of Homo sapiens with 12 samples.

Results

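Expression of 10 genes that supply amino acids to the cell was described across 4 arms of the established human line C4.2B, a castration-resistant prostate cancer model. The genes were taken by name, 7 transporters of the plasma membrane (SLC7A5, SLC3A2, SLC1A5, SLC1A4, SLC7A1, SLC38A2 and SLC43A1) and the 3 enzymes of serine synthesis (PHGDH, PSAT1 and PSPH). All 10 were found among the 23228 genes of the count files, and all 10 passed the filter on low counts that kept 14189 genes for testing. The arms were DMSO (vehicle), GDC (GDC-0941, an inhibitor of PI3K, at 0.5 µM), GSK (GSK126, an inhibitor of the histone methyltransferase EZH2, at 5 µM) and COMBO (both agents at these doses). Every arm had 3 libraries, named A, B and C, and every culture spent the last 24 h in medium with 10% charcoal-stripped serum, a serum depleted of steroids. GSK and COMBO cells were pretreated with GSK126 for 6 days, so these arms also differ from the other two in the length of treatment. The sample labels name the arms only, and doses and times are from the methods of the study. All arms are plates of 1 line, so the spread between libraries, and every p-value, covers plates and not independent lines or tumors.

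Cells import the amino acids they cannot make. SLC7A5 (also called LAT1) exchanges glutamine for leucine and other large neutral amino acids and reaches the membrane as a heterodimer with the SLC3A2 heavy chain (CD98). SLC1A5 and SLC1A4 are sodium-dependent exchangers of small neutral amino acids, SLC1A5 being a main route for glutamine, SLC38A2 is a sodium-coupled carrier of neutral amino acids, SLC7A1 carries arginine and lysine, and SLC43A1 lets large neutral amino acids cross by facilitated diffusion. Serine is made from a glycolytic intermediate, which PHGDH oxidizes, PSAT1 aminates and PSPH dephosphorylates. Many genes of this kind are known targets of ATF4, the transcription factor of the amino acid response, and of MYC.

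The libraries held 8785218 to 44437751 counts in genes, DMSO C being the deepest, and between 103 and 27014 counts stood behind each value of the 10 genes. Reads in genes made up 75.4% to 76.3% of all reads in DMSO and 66.3% to 68.5% in COMBO. All 9 markers of prostate luminal cells were expressed, and their summed level ranged over 3330 to 3550 CPM (read counts scaled to a common library size) in DMSO, compared with 4900 to 5040 with GDC, 4510 to 4910 with GSK and 5600 to 6030 with COMBO. The 3 basal markers stayed under 1 CPM in every library, as did 3 of 4 fibroblast, 3 of 4 immune and 2 of 3 endothelial markers, and CD3E had no count. The fibroblast sum, nearly all COL1A1, was 10.1 to 11.3 CPM in DMSO and 27.8 to 46.3 in COMBO. The part of these shifts in the results was not tested. EZH2 and the proapoptotic gene BMF were read in every arm. EZH2 was at 105 ± 2.75 CPM in DMSO, 81.8 ± 6.93 with GDC, 56.3 ± 0.757 with GSK and 34.9 ± 0.815 with COMBO (SD, n = 3), and its libraries did not overlap between arms, so the level was also below DMSO with GDC alone. BMF was at 15.4 ± 1.23 CPM in DMSO, 24.4 ± 0.588 with GDC, 101 ± 4.61 with GSK and 133 ± 5.33 with COMBO.

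The promoters of 4 genes are shown: the heterodimer partners SLC7A5 and SLC3A2, and the consecutive enzymes PHGDH and PSAT1. They were picked because the levels within each pair came apart. For SLC7A5 and SLC3A2 this was in GSK and COMBO but not in GDC, and for PHGDH and PSAT1 in all inhibitor arms. Any part of the promoters in this was not tested. Each promoter is a RefSeq window of 300 bases that spans the start of transcription and ends 50 bases into the transcript (GRCh38.p14), 5′ to 3′ on the gene's strand. It lies at chr16:87869458-87869757 on the minus strand for SLC7A5, at chr11:62881449-62881748 on the plus strand for SLC3A2, at chr1:119711684-119711983 on the plus strand for PHGDH and at chr9:78296875-78297174 on the plus strand for PSAT1. For SLC3A2 and PHGDH this start lies downstream of the outermost start of the annotated gene. Capitals mark matches to TGATGNAA, the core of the element that ATF4 dimers bind, or to CACGTG, the E-box that MYC and MAX bind.

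SLC7A5 promoter: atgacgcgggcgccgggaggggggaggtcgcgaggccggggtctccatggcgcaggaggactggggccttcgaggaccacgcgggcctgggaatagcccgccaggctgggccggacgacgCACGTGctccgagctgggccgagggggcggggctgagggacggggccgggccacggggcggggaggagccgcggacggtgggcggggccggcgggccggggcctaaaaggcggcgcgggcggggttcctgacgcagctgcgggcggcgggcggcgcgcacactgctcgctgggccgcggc
SLC3A2 promoter: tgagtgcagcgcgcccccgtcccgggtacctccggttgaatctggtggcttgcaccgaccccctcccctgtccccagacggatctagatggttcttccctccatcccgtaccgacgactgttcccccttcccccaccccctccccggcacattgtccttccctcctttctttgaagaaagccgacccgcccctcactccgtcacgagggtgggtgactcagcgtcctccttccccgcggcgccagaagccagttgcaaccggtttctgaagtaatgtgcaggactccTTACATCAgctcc
PHGDH promoter: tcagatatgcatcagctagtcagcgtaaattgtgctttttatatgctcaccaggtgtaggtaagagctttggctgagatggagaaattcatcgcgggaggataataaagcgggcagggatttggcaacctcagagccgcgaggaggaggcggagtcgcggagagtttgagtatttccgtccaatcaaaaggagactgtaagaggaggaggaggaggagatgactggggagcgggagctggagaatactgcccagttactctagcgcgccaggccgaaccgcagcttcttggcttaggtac
PSAT1 promoter: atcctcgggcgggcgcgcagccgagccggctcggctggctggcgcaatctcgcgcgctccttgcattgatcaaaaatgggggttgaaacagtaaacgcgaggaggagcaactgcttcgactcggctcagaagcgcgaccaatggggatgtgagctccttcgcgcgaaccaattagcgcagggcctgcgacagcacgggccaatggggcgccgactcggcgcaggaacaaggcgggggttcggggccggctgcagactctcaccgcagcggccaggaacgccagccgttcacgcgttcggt

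Both motifs were searched on both strands, and no match of one overlapped a match of the other. Windows were at hand for 9 of the 10 genes, all but PSPH. TGATGNAA was present in 2 of the 9, once in SLC3A2 (bases 38 to 45 after the start, read as TTACATCA on the gene's strand) and once in SLC7A1 (bases 8 to 15), compared with 3.67% of 27305 promoters of this length. CACGTG was present in another 2, once in SLC7A5 (bases -130 to -125) and once in SLC43A1 (bases -112 to -107), compared with 7.43% of all promoters. PHGDH, PSAT1, SLC1A5, SLC1A4 and SLC38A2 held neither in this window. A match of letters is a description and not a bound site. The GC content was 80.3% for SLC7A5, 62.7% for SLC3A2, 52.7% for PHGDH and 66.0% for PSAT1, compared with a median of 58.3% over all promoters.

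The level of each gene is best compared with another per length, as CPM divided by the length of its canonical transcript in kilobases. In DMSO the 2 most abundant transcripts on this scale were those of PHGDH (313 CPM per kb) and PSAT1 (213). They were followed by SLC38A2 (105), SLC7A1 (92.4), SLC3A2 (87.0), SLC1A5 (65.4), PSPH (53.9), SLC43A1 (42.7) and SLC7A5 (41.4), and SLC1A4 was lowest at 3.08 CPM per kb. The libraries of SLC7A1 and SLC3A2 overlapped, as did those of SLC43A1 and SLC7A5, and all other neighbors in the order were separate. In COMBO the level of PHGDH was still the highest (151 CPM per kb), but PSAT1 (45.3) had moved below SLC38A2 (79.9) and SLC3A2 (71.9). There, PSAT1 overlapped SLC7A1 (44.3), SLC38A2 overlapped SLC3A2, and SLC43A1 (14.8) overlapped both PSPH (15.6) and SLC7A5 (13.0), while all other neighbors were separate.

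**Figure D1:**
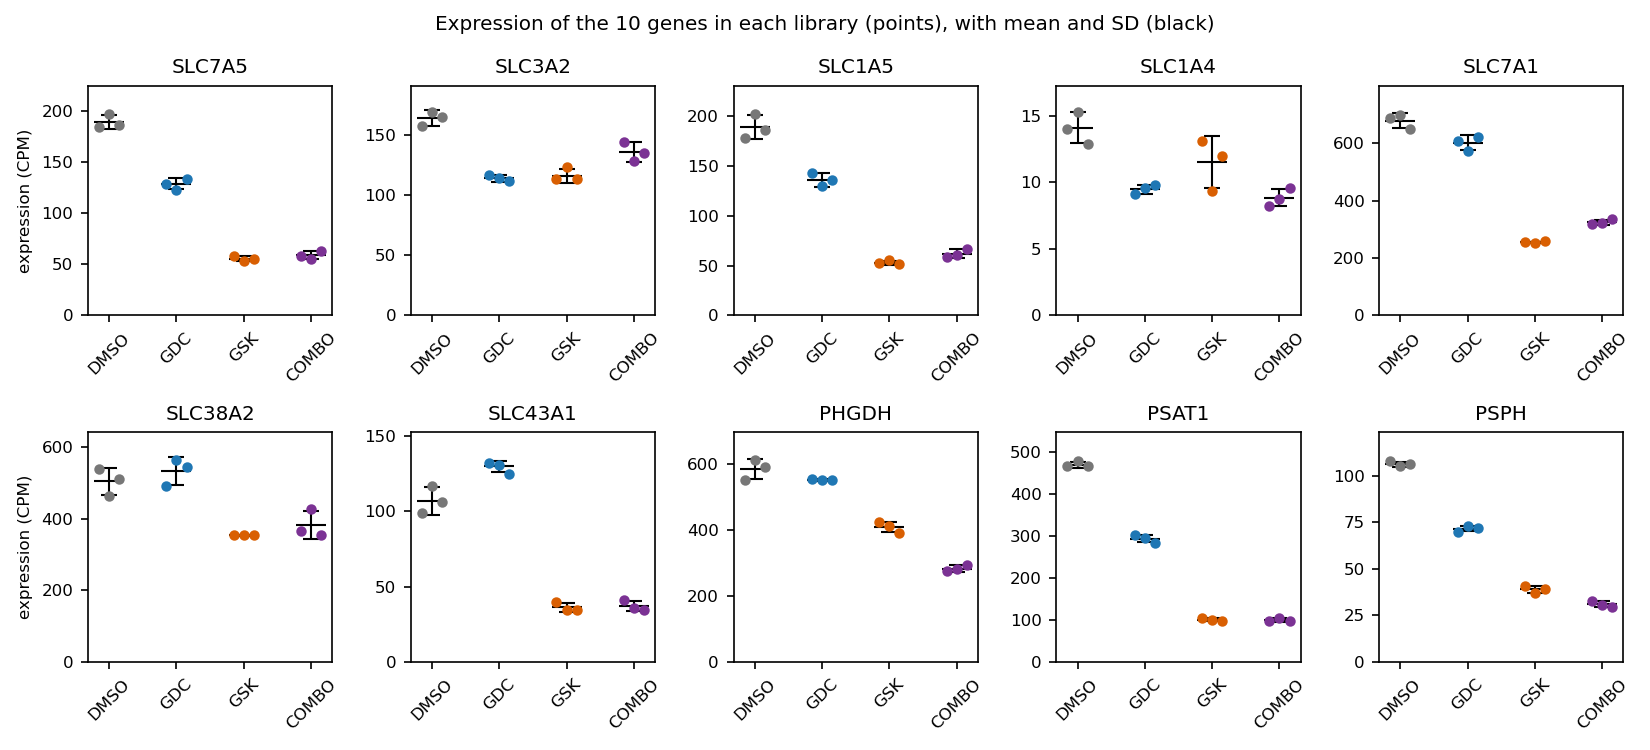
Expression of the 10 genes in CPM (vertical axis, from 0, a separate scale per gene) in the libraries of DMSO, GDC, GSK and COMBO, with 1 point per library and the arm's mean and SD in black. PSAT1 falls from 465 to 477 CPM in DMSO to about 100 CPM in GSK and COMBO, whereas PHGDH is at 274 to 293 CPM in COMBO, below its GSK libraries (391 to 422 CPM).

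Taken as a sum, the 10 genes accounted for 3006 ± 43.6 CPM in DMSO and 2571 ± 18.3 in GDC, compared with 1430 ± 25.2 with GSK and 1424 ± 27.1 with COMBO (SD, n = 3). The summed level of the 7 transporters was 1847 ± 25.5, 1654 ± 27.3, 882 ± 5.53 and 1011 ± 23.1 CPM in that order of arms. That of the 3 serine enzymes was 1159 ± 34.2, 916 ± 9.23, 548 ± 19.7 and 413 ± 8.29 CPM. The transporter sum was thus higher in each COMBO library (995 to 1038 CPM) than in any GSK library (877 to 888). The enzyme sum was lower in each COMBO library (404 to 420) than in any GSK library (528 to 568). Abundant genes weigh most in these sums: PHGDH averaged 408 CPM in GSK and 282 in COMBO, and SLC7A1 255 and 325. Not every gene moved with its sum. PSAT1 (101 and 99.9 CPM) and SLC7A5 (55.7 and 59.2) differed little, and SLC1A4 was lower in COMBO (11.5 and 8.84). In bulk RNA, fewer cells that express a gene and less RNA per cell cannot be told apart.

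To ask what PI3K inhibition alone does to these genes, GDC was compared with DMSO. Of the 10 genes, 8 changed (edgeR quasi-likelihood test, adjusted p under 0.05), 7 lower and 1 higher, whereas 40.1% of all tested genes were called, 20% higher and 20% lower. The median log2 fold change of the 10 genes was -0.50, compared with 0.016 over all tested genes. The GSK arm, which also had 6 days of pretreatment, changed more, and agent and length of treatment cannot be told apart. In GSK all 10 were called lower, with a median of -1.43, whereas 75.7% of all genes were called, 35.7% lower and 40.0% higher, with a median of 0.058. In COMBO all 10 were again lower than in DMSO, with a median of -1.30, whereas 82.5% of all genes were called, 39.2% lower and 43.3% higher, with a median of 0.054. The 3 comparisons share the DMSO libraries. Scaling by library totals raised the median of all genes by 0.15 in GSK and 0.21 in COMBO, and under it 9 of the 10 genes were called lower in either arm. Of all calls, 52.8% were higher in GSK and 52.5% in COMBO here, compared with 64.0% and 63.3% with library totals, and in GDC 50% here compared with 38.7% with DESeq2.

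**Figure D2:**
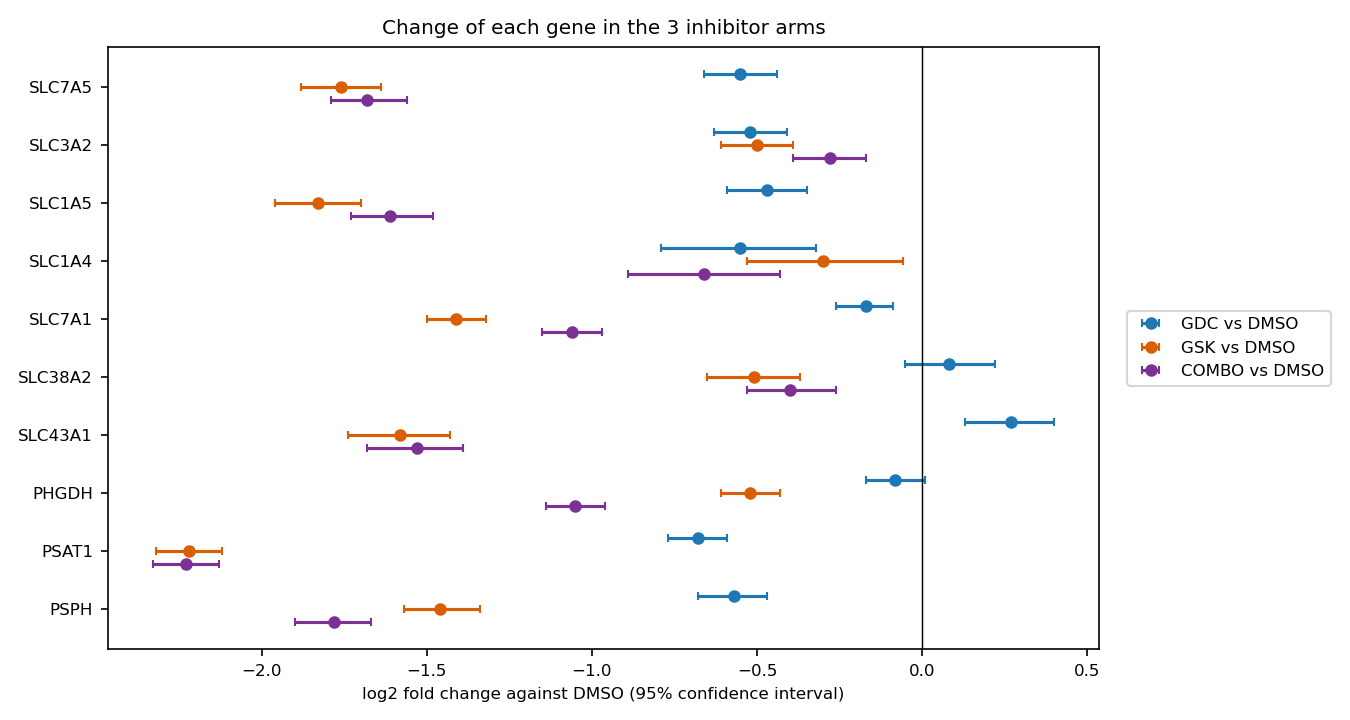
Log2 fold change against DMSO (horizontal axis, bars are 95% confidence intervals) of each of the 10 genes in GDC, GSK and COMBO. GDC changes lie between -0.68 and 0.27, and those of GSK and COMBO reach -2.22 and -2.23 in PSAT1.

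The heterodimer partners were considered first. SLC7A5 (ENSG00000103257, chr16:87830023-87869507, minus strand) was at 184, 197 and 186 CPM in the DMSO libraries A, B and C, 129, 123 and 134 in those of GDC, 58.3, 53.6 and 55.2 in those of GSK and 58.4, 55.6 and 63.6 in those of COMBO. DMSO was highest, GDC intermediate and the other 2 arms lowest, with no overlap except between GSK and COMBO. Against DMSO, SLC7A5 changed on the log2 scale by -0.55 with GDC (SE 0.053, adjusted p = 1.58e-07), -1.76 with GSK (SE 0.058, adjusted p = 1.22e-15) and -1.68 with COMBO (SE 0.055, adjusted p = 2.90e-16), the last equal to a level 3.20-fold lower. COMBO and GSK differed by 0.086, with a 95% confidence interval of -0.041 to 0.21 (adjusted p = 0.261). Its pseudogenes SLC7A5P1 and SLC7A5P2 had at most 5.27% of the SLC7A5 counts in any library, and reads that match both copies could be misplaced or left out.

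SLC3A2 (ENSG00000168003, chr11:62856004-62888880, plus strand) moved much less than SLC7A5 in GSK and COMBO, and by a similar amount in GDC. It was at 157, 169 and 165 CPM in the DMSO libraries A, B and C, 117, 114 and 112 in those of GDC, 113, 123 and 113 in those of GSK and 144, 128 and 135 in those of COMBO. The COMBO libraries lay between those of DMSO and those of either single agent, without overlap. The log2 fold change of SLC3A2 against DMSO was -0.52 for GDC (SE 0.053, adjusted p = 3.13e-07). For GSK it was -0.50 (SE 0.053, adjusted p = 5.35e-08), and for COMBO -0.28 (SE 0.052, adjusted p = 5.63e-05). COMBO was above GDC by 0.25 (SE 0.053, adjusted p = 3.30e-04) and above GSK by 0.22 (SE 0.054, adjusted p = 0.00223). With library totals the COMBO change was -0.069 and was no longer called (adjusted p = 0.239). In the other 17 alternatives it was called.

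A ratio of 2 genes within a library does not depend on how libraries are scaled. The ratio of SLC7A5 to SLC3A2 counts was 1.15 ± 0.0247 in DMSO and 1.12 ± 0.0582 in GDC (SD, n = 3). It was 0.481 ± 0.0399 with GSK and 0.437 ± 0.0322 with COMBO. GSK (0.437 to 0.515) and COMBO (0.406 to 0.470) lay below all DMSO libraries (1.12 to 1.17), and the log2 differences from DMSO were -1.26 and -1.40. The exact permutation test gave p = 0.1 for each, the smallest that 3 against 3 libraries allow (adjusted p = 0.15 over 3 arms, two-sided). For GDC the log2 difference was -0.035 (exact permutation p = 0.5), with GDC libraries at 1.08 to 1.19.

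**Figure D3:**
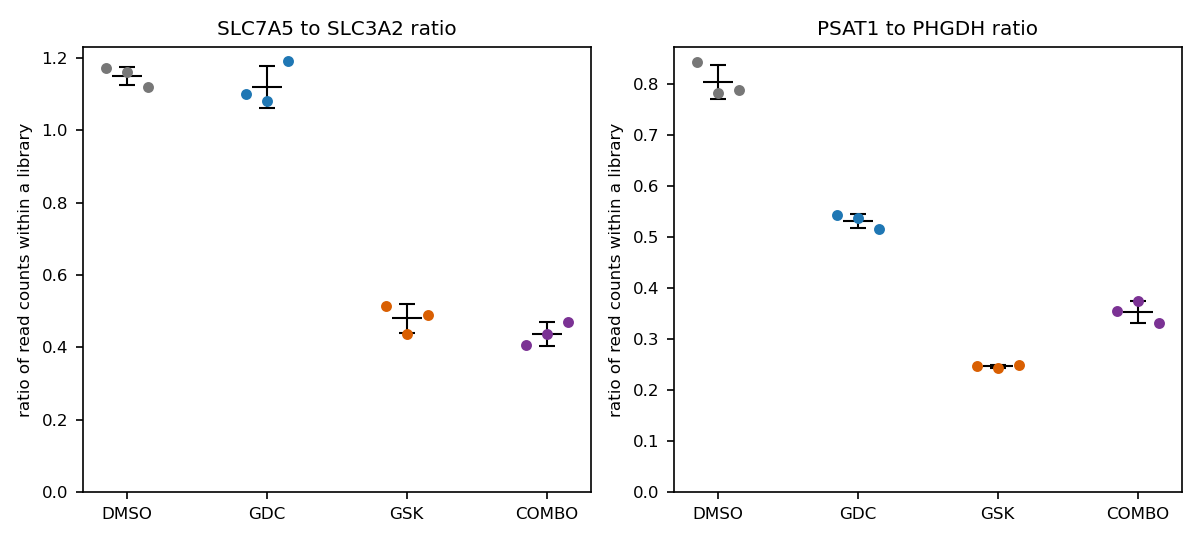
Ratio of read counts within each library (vertical axis, from 0) for SLC7A5 to SLC3A2 and for PSAT1 to PHGDH in the 4 arms, with 1 point per library and mean and SD in black. The first ratio is 1.08 to 1.19 in DMSO and GDC and at most 0.515 in GSK and COMBO, and the second is lowest in GSK (0.244 to 0.249).

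The glutamine exchanger SLC1A5 (ENSG00000105281, chr19:46774883-46788594, minus strand) was at 178, 202 and 186 CPM in the DMSO libraries A, B and C, 143, 130 and 136 in those of GDC, 52.3, 55.4 and 51.4 in those of GSK and 58.3, 61.2 and 66.7 in those of COMBO. No arms overlapped, and COMBO was slightly above GSK. SLC1A5 had log2 fold changes of -0.47 (GDC, adjusted p = 2.57e-06), -1.83 (GSK, adjusted p = 2.34e-15) and -1.61 (COMBO, adjusted p = 1.65e-15) against DMSO, and COMBO exceeded GSK by 0.22 (SE 0.066, adjusted p = 0.00904). The related exchanger SLC1A4 (ENSG00000115902, chr2:64988477-65023865, plus strand), which carries alanine, serine and cysteine, was at 14, 15.3 and 12.9 CPM in the DMSO libraries A, B and C, 9.10, 9.55 and 9.79 in those of GDC, 13.1, 9.33 and 12 in those of GSK and 8.24, 8.74 and 9.54 in those of COMBO. Its GSK libraries spread widely and overlapped those of every other arm.

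SLC1A4 was lower with GDC (-0.55, SE 0.11, adjusted p = 6.08e-04) and also with COMBO (-0.66, SE 0.11, adjusted p = 1.37e-05). Its smaller change in GSK (-0.30, SE 0.11, adjusted p = 0.0244) was not called without GSK B (-0.20, adjusted p = 0.129), without DMSO B (-0.26, adjusted p = 0.0707) or with library totals (-0.14, adjusted p = 0.258). COMBO was called below GSK (-0.37, SE 0.12, adjusted p = 0.0185), a call that was lost without GSK A (-0.25, adjusted p = 0.146), GSK C (-0.33, adjusted p = 0.0696) or COMBO A (-0.29, adjusted p = 0.091). Between COMBO and GDC the difference was -0.11, with an interval of -0.36 to 0.14.

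SLC7A1 (ENSG00000139514, chr13:29509414-29595688, minus strand), the carrier of arginine and lysine, was at 687, 699 and 650 CPM in the DMSO libraries A, B and C, 609, 573 and 622 in those of GDC, 256, 252 and 258 in those of GSK and 320, 321 and 335 in those of COMBO. No arms overlapped. The decrease of SLC7A1 was small with GDC (-0.17, SE 0.042, adjusted p = 0.00246) and larger with GSK (-1.41, SE 0.043, adjusted p = 5.27e-16) and COMBO (-1.06, SE 0.042, adjusted p = 5.33e-15). COMBO exceeded GSK by 0.35 (SE 0.043, adjusted p = 1.61e-06), which is 1.27-fold.

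SLC38A2 (ENSG00000134294, chr12:46358188-46372773, minus strand) was at 539, 465 and 512 CPM in the DMSO libraries A, B and C, 492, 565 and 546 in those of GDC, 355, 354 and 354 in those of GSK and 366, 428 and 356 in those of COMBO. DMSO and GDC overlapped, and both lay above GSK and COMBO. In GDC the change was 0.082, with an interval of -0.052 to 0.22 (adjusted p = 0.329). SLC38A2 was lower with GSK (-0.51, adjusted p = 6.25e-07) and with COMBO (-0.40, adjusted p = 1.12e-05). The difference between COMBO and GSK, 0.11, was not called (interval -0.022 to 0.25, adjusted p = 0.161), although the libraries did not overlap.

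SLC43A1 (ENSG00000149150, chr11:57484534-57515780, minus strand), which moves the same class of amino acids as SLC7A5 but without exchange, was the 1 gene called higher in GDC. It was at 98.9, 117 and 106 CPM in the DMSO libraries A, B and C, 132, 131 and 125 in those of GDC, 39.7, 34.5 and 34.3 in those of GSK and 40.9, 35.9 and 34.5 in those of COMBO. GDC lay above DMSO without overlap, and GSK and COMBO overlapped each other. Its log2 fold change was 0.27 for GDC (SE 0.065, adjusted p = 0.00271), but -1.58 for GSK (SE 0.075, adjusted p = 2.20e-13) and -1.53 for COMBO (SE 0.070, adjusted p = 4.85e-14). Against GDC, COMBO was 3.48-fold lower (-1.80, adjusted p = 8.71e-15).

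The serine enzymes were then taken in the order of the pathway. PHGDH (ENSG00000092621, chr1:119648411-119744218, plus strand), which commits the glycolytic intermediate to serine, was at 551, 610 and 590 CPM in the DMSO libraries A, B and C, 554, 550 and 550 in those of GDC, 422, 411 and 391 in those of GSK and 274, 280 and 293 in those of COMBO. DMSO and GDC overlapped, GSK was lower and COMBO was lowest. PHGDH was lower than DMSO with GSK (-0.52, SE 0.044, adjusted p = 1.81e-09) and with COMBO (-1.05, SE 0.044, adjusted p = 1.34e-14), and COMBO was below GSK by -0.53 (SE 0.045, adjusted p = 8.33e-09). In GDC its change was -0.083 (interval -0.17 to 0.0083, adjusted p = 0.140). That change was called in 7 of 18 alternatives, among them DESeq2 (-0.13, adjusted p = 0.0185) and the fits without DMSO A (-0.16, adjusted p = 0.00572), GSK A (-0.12, adjusted p = 0.0355), GSK B (-0.12, adjusted p = 0.0412) or COMBO A (-0.12, adjusted p = 0.0309).

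PSAT1 (ENSG00000135069, chr9:78297125-78330093, plus strand) had the largest decrease of the 10 genes in each inhibitor arm in the fit of all libraries. This aminotransferase was at 465, 477 and 465 CPM in the DMSO libraries A, B and C, 301, 295 and 284 in those of GDC, 105, 100 and 97.6 in those of GSK and 97.4, 105 and 97.4 in those of COMBO. DMSO and GDC were separate from each other and from the remaining arms, while GSK and COMBO overlapped. PSAT1 changed by -0.68 with GDC (SE 0.043, adjusted p = 9.37e-10), by -2.22 with GSK (SE 0.047, adjusted p = 2.20e-18) and by -2.23 with COMBO (SE 0.046, adjusted p = 3.39e-19) on the log2 scale, the last equal to a level 4.69-fold lower. COMBO and GSK differed by -0.0096, with an interval of -0.11 to 0.090.

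PSPH (ENSG00000146733, chr7:56011051-56051604, minus strand), the phosphatase of the last step, was at 108, 105 and 106 CPM in the DMSO libraries A, B and C, 69.8, 72.8 and 72.0 in those of GDC, 40.9, 36.8 and 39.1 in those of GSK and 32.6, 30.7 and 29.3 in those of COMBO. No arms overlapped, and the order was DMSO, GDC, GSK and COMBO. PSPH had log2 fold changes of -0.57 for GDC (adjusted p = 5.39e-08), -1.46 for GSK (adjusted p = 9.20e-15) and -1.78 for COMBO (adjusted p = 6.20e-17), and COMBO was below GSK by -0.33 (SE 0.060, adjusted p = 1.70e-04). PSAT1 has 4 named pseudogenes and PSPH has 1, none of them listed in the count files, so reads that match a copy as well could have been left out as not unique.

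The PSAT1 to PHGDH ratio of counts was 0.804 ± 0.0335 for DMSO and 0.532 ± 0.0139 for GDC, and lower at 0.247 ± 0.00286 for GSK and 0.354 ± 0.0212 for COMBO (SD, n = 3). The arms did not overlap, and COMBO (0.332 to 0.375) lay between GSK and GDC. Log2 differences from DMSO were -0.60, -1.70 and -1.18 in GDC, GSK and COMBO, and each gave p = 0.1 in the exact permutation test, the smallest possible here (adjusted p = 0.1 over 3 arms, two-sided).

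COMBO was next compared with each single agent. Against GDC, 9 of the 10 genes changed, 8 lower and SLC3A2 higher, and 76.0% of all genes were called, 38.0% lower and 37.9% higher. Only SLC1A4 was not called. Against GSK, 6 of the 10 changed, and 45.9% of all genes were called. SLC3A2, SLC1A5 and SLC7A1 were higher, where 19.0% of all genes were called higher, and SLC1A4, PHGDH and PSPH were lower, where 26.9% were called lower. SLC7A5, SLC38A2, SLC43A1 and PSAT1 were not called, and for these 4 genes the intervals of the difference from GSK reached from -0.12 at the lowest to 0.25 at the highest.

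Whether COMBO gave more or less change than GDC and GSK added together on the log2 scale was tested by the interaction (the COMBO change less those of GDC and GSK). It was called for 7 of the 10 genes, 6 above the sum and 1 below it, and for 21.4% of all genes, 4.86% above and 16.5% below. This background moved with the processing: 22.7% of all interaction calls lay above the sum here and 55.4% with no filter, and there were 3034 calls here and 2014 without DMSO C. SLC3A2 had the largest value, 0.74 (SE 0.075, adjusted p = 7.00e-07), with a sum of -1.02 and a COMBO change of -0.28. It was followed by SLC1A5 at 0.70 (SE 0.087, adjusted p = 9.39e-06), PSAT1 at 0.67 (SE 0.064, adjusted p = 3.62e-07), SLC7A5 at 0.64 (SE 0.081, adjusted p = 1.02e-05), SLC7A1 at 0.52 (SE 0.060, adjusted p = 3.52e-06) and PSPH at 0.24 (SE 0.078, adjusted p = 0.0317). In these genes COMBO was less low than the sum of both changes. PHGDH was the exception, at -0.45 (SE 0.062, adjusted p = 3.03e-05), since its sum was -0.60 and its COMBO change -1.05. SLC1A4 (0.19, interval -0.16 to 0.53), SLC38A2 (0.032, interval -0.16 to 0.22) and SLC43A1 (-0.22, interval -0.43 to -0.0027) were not called (adjusted p = 0.469, 0.849 and 0.143). The 7 calls were also made in each of the 17 alternative fits.

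**Figure D4:**
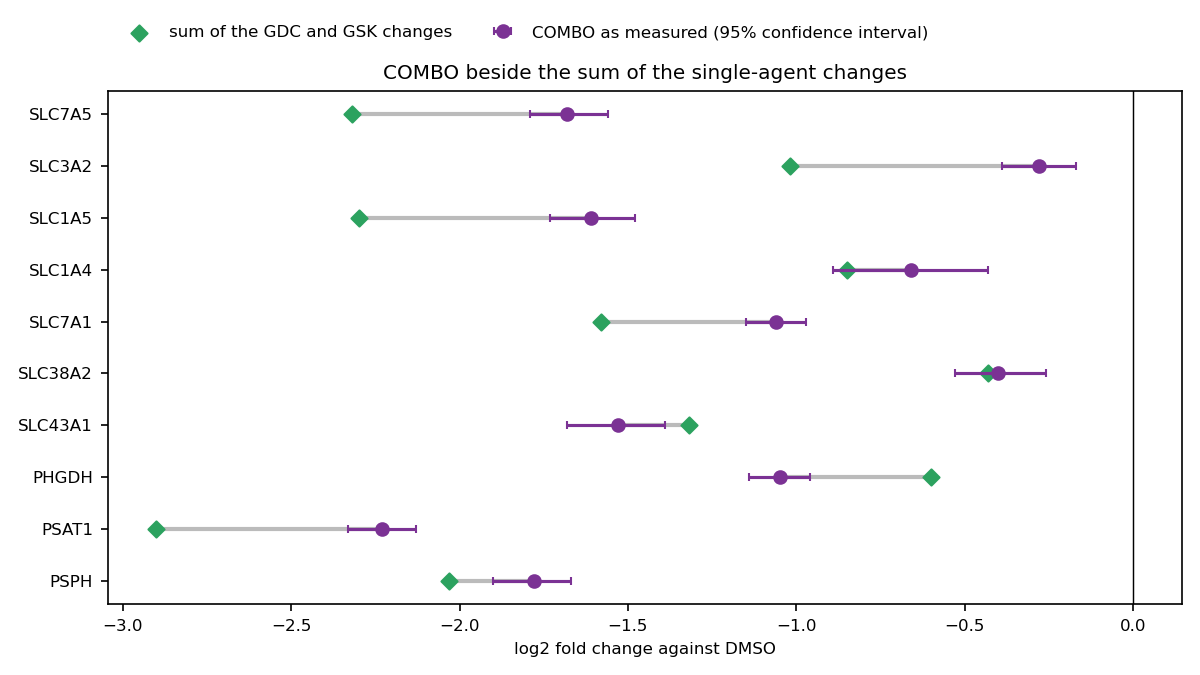
For each of the 10 genes, the sum of the GDC and GSK log2 fold changes (diamonds) and the log2 fold change measured in COMBO (circles, bars are 95% confidence intervals), all against DMSO. PSAT1 has a sum of -2.90 and a measured change of -2.23, and PHGDH is measured at -1.05, below its sum of -0.60.

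The genes with the nearest pattern were sought among 11293 tested genes with a mean log2 CPM of at least 2, by the root mean square difference of centred log2 CPM over the 12 libraries. SLC7A5 and SLC1A5 were nearest to each other (0.086), and of genes outside the 10, YARS was nearest to both (0.087 and 0.128), followed by RRS1. For PSAT1 these were MTHFD2 (0.083) and BRIX1 (0.173), for PSPH PNPT1 (0.081) and NOP2 (0.082), and for PHGDH FH (0.035) and MRPL37 (0.047). MTHFD2, an enzyme of mitochondrial one-carbon metabolism, had log2 fold changes of -0.51, -2.04 and -2.09 in GDC, GSK and COMBO, beside -0.68, -2.22 and -2.23 for PSAT1. FH, the fumarase of the TCA cycle, had -0.074, -0.52 and -1.06, beside -0.083, -0.52 and -1.05 for PHGDH. The nearest genes were MFHAS1 (0.092) and DIEXF (0.1) for SLC7A1, IMPAD1 (0.042) and NADKD1 (0.047) for SLC38A2, STK39 (0.108) and C12orf24 (0.150) for SLC43A1, EIF1 (0.108) and SFSWAP (0.109) for SLC3A2, and ALAS1 (0.122) and TRIM16L (0.133) for SLC1A4. For SLC3A2 and SLC1A4 these distances were 0.43 to 0.51 of the gene's own SD over the libraries, compared with 0.08 to 0.20 for the other 8 genes, so relative to their own spread SLC3A2 and SLC1A4 were followed less closely.

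The rest of amino acid transport was described with a list of 30 other transporters, of which 18 were tested and 12 were under the filter. In COMBO 9 of the 18 were called higher and 8 lower, with a median log2 fold change of 0.086, beside 43.3% of all tested genes called higher and 39.2% lower. In GSK 11 were higher and 7 lower (median 0.35), beside 40.0% and 35.7% of all genes, and in GDC 2 were higher and 6 lower (median -0.10), beside 20% in each direction. SLC6A19, a neutral amino acid transporter typical of gut and kidney, had the largest change, from 0.937 ± 0.315 CPM in DMSO to 30.5 ± 4.53 in GSK and 14.8 ± 0.157 in COMBO (log2 fold change 3.78 in COMBO, adjusted p = 3.48e-14). SLC1A3, a glutamate transporter, fell from 7.51 ± 1.5 to 1.09 ± 0.383 CPM in COMBO (-2.85, adjusted p = 9.84e-11), and SLC7A2, a relative of SLC7A1, from 123 ± 6.73 to 28.7 ± 0.822 (-2.10, adjusted p = 1.10e-17). The other tested light chains that pair with SLC3A2, named here for that role with their values known, did not move as 1 group. SLC7A7 and SLC7A10, which also pair with SLC3A2, were under the filter. SLC7A11, the cystine exchanger, changed by -0.85, -2.29 and -1.12 in GDC, GSK and COMBO (adjusted p = 2.17e-08, 1.88e-15 and 6.43e-12), with an interaction of 2.02 (adjusted p = 1.12e-10). SLC7A6 changed by -0.59 in GSK and -0.63 in COMBO (adjusted p = 1.67e-07 and 1.69e-08), and SLC7A8 by 0.31 in GSK (adjusted p = 1.78e-05), with -0.11 in COMBO (adjusted p = 0.0516).

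Of 25 enzymes that use serine or make other amino acids, 24 were tested. In COMBO 14 were called lower and 5 higher (median -0.45), beside 39.2% and 43.3% of all genes. In GSK 15 were lower and 5 higher (median -0.29), beside 35.7% and 40.0%, and in GDC 7 were lower and 6 higher (median -0.040), beside 20% in each direction. AMT, a subunit of the glycine cleavage system, had the largest change in COMBO (2.01, adjusted p = 3.33e-05), at 3.11 ± 1.36 CPM compared with 0.729 ± 0.207 in DMSO. The aminotransferases GOT1 and BCAT1 followed, at -1.55 (adjusted p = 1.43e-15) and -1.47 (adjusted p = 5.20e-09). AMT was low in DMSO, and its exons overlap those of NICN1 on the same strand, so reads could be misplaced or left out. The plot of gene lists sets these values beside those of the 10 genes.

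**Figure D5:**
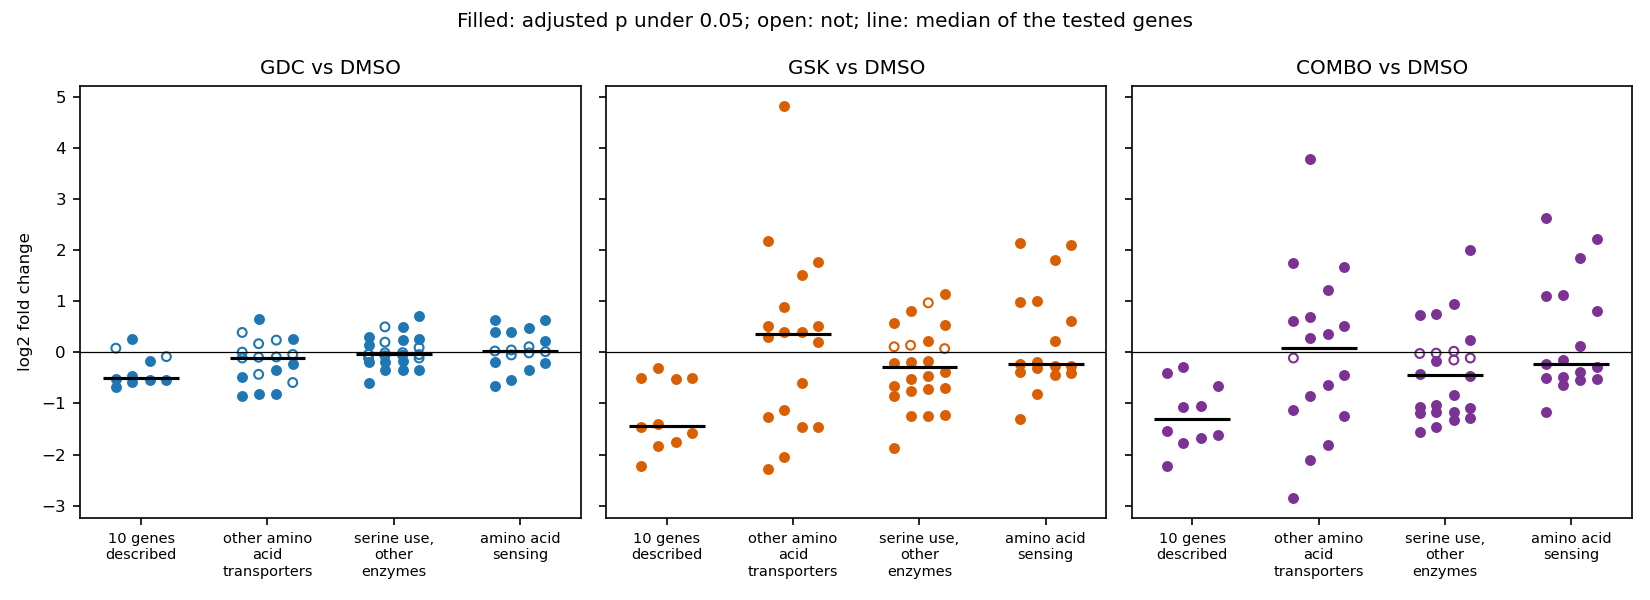
Log2 fold change against DMSO (vertical axis) of the 10 genes and of the tested genes of 3 lists (18 other amino acid transporters, 24 enzymes and 17 genes of amino acid sensing) in GDC, GSK and COMBO. Filled points have an adjusted p under 0.05, open points do not, and lines are medians, which in COMBO are -1.30 for the 10 genes and 0.086, -0.45 and -0.23 for the lists.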

How the data were processed

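PolyA RNA was sequenced from 12 libraries of C4.2B cells. The authors aligned reads to hg38 with STAR and counted them per gene symbol with HTSeq, and the deposited count files hold whole reads, not normalized. Versions, the annotation and the strand setting are not given in the sources used here. A deposited table of DESeq2-normalized values was not used, and 0 columns were left unmapped. The 5 summary lines of each file, with reads outside genes, ambiguous or not uniquely aligned, held 23.7% to 33.7% of all reads and stayed out of library sizes and tests.

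Counts were tested by the quasi-likelihood method of edgeR 4.0.16 (R 4.3.3): TMM scaling, filterByExpr (14189 of 23228 genes kept), 1 fit of all 12 libraries with 1 coefficient per arm, two-sided, Benjamini-Hochberg adjustment over all tested genes, threshold 0.05. The SE is the log2 fold change divided by the square root of its F statistic. CPM are counts scaled to the TMM-adjusted library size, and log2 CPM used a prior count of 2. A count of 0 allows 3 counts, 0.0675 to 0.341 CPM, by counting error only. Replicates differed by more than sampling noise (chi-square per degree of freedom 1.80 to 6.49). Within-library ratios of raw counts were compared by an exact permutation test.

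Coordinates and transcript lengths are from GENCODE 44 (hg38), which placed all 10 genes. Promoters are from RefSeq. The genes, the 3 further lists and the tests were chosen with earlier results of these data known. Named genes were the 10, the 2 nearest patterns of each, and the 3 called genes of each list with the largest absolute change in COMBO. CASTOR1 of the sensing list was not among the symbols of the files. Alternatives were DESeq2 1.42.0, edgeR with the size factors of DESeq2, library totals without TMM, no filter, the compared arms only, a replicate block and fits without each library.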

Additional observations from a re-analysis of the deposited data

Results flagged for a closer look

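For 7 of the 10 genes the effect of GDC-0941 differed between cells without and with GSK126, by the interaction term of the edgeR fit (adjusted p under 0.05), 6 above the sum of the single-agent changes and 1 below it. Of all tested genes, 21.4% were called by this term, 4.86% above and 16.5% below. The interaction was 0.64 for SLC7A5, whose log2 change on adding GDC-0941 was -0.55 without GSK126 and 0.086 with it. It was 0.74 for SLC3A2 (-0.52 without and 0.22 with), 0.70 for SLC1A5 (-0.47 and 0.22), 0.52 for SLC7A1 (-0.17 and 0.35), 0.67 for PSAT1 (-0.68 and -0.0096) and 0.24 for PSPH (-0.57 and -0.33). For PHGDH it was -0.45 (-0.083 without and -0.53 with). In SLC3A2, SLC1A5 and SLC7A1 the added agent was called in both settings and in opposite directions, lower without GSK126 and higher with it.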

How the results depend on the processing

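Over up to 18 alternatives for each of 60 values (the 10 genes in 6 comparisons), 1053 of 1070 kept their side of the threshold, 8 lost a call, 9 gained one and 0 reversed a called direction. Values that were not called could change sign: SLC38A2 in GDC ranged from -0.011 to 0.12, SLC1A4 in COMBO against GDC from -0.18 to 0.063, PSAT1 in COMBO against GSK from -0.049 to 0.044 and the SLC38A2 interaction from -0.049 to 0.15. The 17 fell in 5 values: PHGDH in GDC, SLC1A4 in GSK, SLC3A2 in COMBO, and SLC1A4 and SLC38A2 in COMBO against GSK. The number of the 10 genes called ranged from 8 to 9 in GDC, 9 to 10 in GSK and in COMBO, and 5 to 7 in COMBO against GSK, and it was 9 in COMBO against GDC and 7 in the interaction throughout. SLC38A2 was called higher in COMBO than in GSK with library totals (0.17, adjusted p = 0.0326) and no filter (0.15, adjusted p = 0.018). SLC1A4, the least abundant, lost its COMBO against GSK call in a fit of those arms only (-0.34, adjusted p = 0.0502).

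The share of higher calls among all genes, which the background percentages rest on, moved with scaling. With library totals it was 64.0% in GSK (as reported 52.8%), 63.3% in COMBO (52.5%), 62.8% in COMBO against GDC (49.9%) and 52.3% in COMBO against GSK (41.4%). For GDC (50% as reported) it was 38.7% with DESeq2, 40.0% with its size factors, 35.9% with no filter and 58.5% with library totals. Fits without any 1 library of DMSO or GDC, or without GSK A, GSK B or COMBO A, gave 39.3% to 40.7%. Those without GSK C, COMBO B or COMBO C gave 47.5% to 48.0%. For the interaction, where 690 of 3034 calls were above the sum, there were 840 of 2514 with DESeq2, 963 of 2815 with its size factors and 1638 of 2957 with no filter. Without DMSO C, the deepest library, the interaction called 2014 genes, 732 above the sum, and over the fits without 1 library 25.1% to 43.7% of the calls lay above it.

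Deviations of same-letter libraries from their arm means correlated at -0.084 to 0.188, compared with -0.146 to 0.104 for different letters. Of 18 same-letter pairs, 2 were over 0.1, both of GDC with COMBO. Between these arms the letters A, B and C gave 0.116, 0.188 and 0.073, and different letters -0.146 to 0.045. Of the 12 libraries, 6 correlated best with their own letter. With the letter as a replicate block the counts of the 10 genes called were 8, 10, 10, 9, 6 and 7 in GDC, GSK, COMBO, COMBO against GDC, COMBO against GSK and the interaction. SLC1A4, with as few as 103 counts in a library, is the gene whose precision depth limits most.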

Other observations

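Genes that sense amino acids were also read, from a list of 18 of which 17 were tested. In COMBO 10 were called lower and 7 higher (median log2 fold change -0.23), beside 39.2% of all tested genes called lower and 43.3% higher. In GSK 10 were lower and 7 higher (median -0.23), beside 35.7% and 40.0% of all genes, and in GDC 5 were lower and 6 higher (median 0.027), beside 20% in each direction. The largest changes in COMBO were in SESN1, at 64.4 ± 5.98 CPM in DMSO and 397 ± 9.15 in COMBO (2.63, adjusted p = 6.14e-19), RRAGD, at 11.7 ± 0.627 and 53.8 ± 1.91 (2.22, adjusted p = 1.52e-16), and SESN3, at 52.3 ± 5.07 and 185 ± 3.07 (1.84, adjusted p = 8.18e-16) (SD, n = 3). Sestrins restrain mTORC1, and RRAGD is one of the Rag GTPases that bring mTORC1 to the lysosome. SESN2, a leucine-binding Sestrin, also named with its values known, changed by -0.54 in COMBO (adjusted p = 1.17e-06).

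The ATF4 transcript, named here with its values known, averaged 515 ± 23.7 CPM without inhibitor, 405 ± 6.43 with GDC, 292 ± 9.33 with GSK and 463 ± 16 with COMBO (SD, n = 3). It was higher in COMBO than in GSK by 0.67 (SE 0.044, adjusted p = 2.55e-10), and its interaction was 1.01 (SE 0.061, adjusted p = 8.15e-10). ATF4 protein, which is set largely by translation, was not measured here.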
